A study of Mus musculus with 30 samples.

Results

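Osteoclasts are the cells that dissolve bone. They form when macrophages of the bone marrow are exposed to 2 cytokines, M-CSF, which keeps the precursors alive, and RANKL, which binds the receptor RANK and starts the osteoclast programme, after which precursors leave the cell cycle, fuse into cells with many nuclei, pump acid through a proton pump and secrete enzymes that degrade collagen. The stage of multinucleated cells was compared here with an early stage of the same protocol, in wild-type cells from mice of 6 months.

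The comparison held 6 of the 30 libraries of the series, chosen by their labels alone: 3 from 6-month wild-type (WT) cultures kept in the cytokines until large multinucleated cells appeared (replicates 2, 3 and 4), and 3 from 6-month WT cultures kept in them for 2 days (replicates 1, 2 and 4). All 6 came from C57BL/6J mice, and in both groups bone marrow-derived macrophages were grown in α-MEM with 10% fetal bovine serum, 25 ng/ml M-CSF and 100 ng/ml RANKL. The length of the multinucleated cultures in days is not given in the labels, so the 2 groups differ in time in culture as well as in the stage reached. The labels do not say whether replicates were separate mice or separate dishes, so p-values measure the spread between libraries of a group, which may be technical. That spread was estimated over all 30 libraries. A second WT pair came from mice of 20 months (3 multinucleated and 3 2-day libraries, the same strain, media and cytokines). It is used below as the only other place in the series where both stages were sequenced at the same age. The other libraries were multinucleated cultures of 1-month WT mice and of knockout (KO) mice of 1 and 6 months. Some of their labels carry D1 or 519. These libraries enter the shared fit (filter, scaling and spread) and the comparison of levels at the end.

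The 6 libraries held 16433001 to 19969599 counts over genes, and 15310 genes passed the filter on low counts. Replicates of a group differed by 2.40 to 5.66 times the variance that counting alone gives, so no 2 libraries were copies of one another. In the 2-day group, replicate 1 differed from replicates 2 and 4 by 5.53 and 5.66 times that variance, against 2.40 between replicates 2 and 4, and without it 7204 genes were called. Transcripts of the mitochondrial chromosome took 4.07% to 4.30% of counts in multinucleated cultures and 2.50% to 2.71% in 2-day cultures, and the 100 most abundant genes took 22.8% to 23.2% in multinucleated cultures and 19.8% to 20.3% in 2-day cultures. Levels below are CPM, counts scaled to library size with TMM factors, a change is a log2 fold change of multinucleated over 2-day cultures with its standard error, and a gene is called at an adjusted p under 0.05 over all genes tested. RPKM (CPM per kilobase of exon) is used wherever 2 genes are compared with each other.

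Osteoclast markers were found in both groups, at different levels. All 9 defining markers, Ctsk, Acp5, Mmp9, Calcr, Dcstamp, Ocstamp, Atp6v0d2, Oscar and Itgb3, were detected in every library and were higher in multinucleated cultures. The 32 measured macrophage markers summed to 11469 to 11724 CPM in multinucleated cultures and 10693 to 11423 CPM in 2-day cultures. In the lists for neutrophils, T and NK cells, mast cells, and erythroid cells and platelets the measured members summed to at most 122 CPM in any of the 6 libraries. That highest value came from the erythroid and platelet list, mostly Pf4, which summed to 18.1 to 22.6 CPM in multinucleated cultures and 73.5 to 122 CPM in 2-day cultures. The B and plasma cell list summed to 349 to 373 CPM in multinucleated cultures and 309 to 323 CPM in 2-day cultures, mostly from Sdc1, and the dendritic cell list to 125 to 138 CPM in multinucleated cultures and 172 to 189 CPM in 2-day cultures. Median changes ran against these sums, at -0.51 over 6 B and plasma cell genes and 1.09 over 9 dendritic cell genes. The part of these lists in the results was not tested. S100a9, Elane, Cd3e, Cd8a, Fcer1a and Cma1 were at 0 counts in all 6.

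Stromal transcripts were present in both groups, and their amount moved with the comparison. The 30 measured members of a collagen, matrix and stromal list summed to 3760 to 4705 CPM in multinucleated cultures and 10936 to 11786 CPM in 2-day cultures, and 25 caveolar and contractile genes to 2348 to 2647 CPM in multinucleated cultures and 9090 to 10047 CPM in 2-day cultures. In bulk RNA, fewer cells of a type and less RNA per cell cannot be told apart. These sums moved the same way as the other groups of genes that were lower, and their part in those results was not tested.

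**Figure D1:**
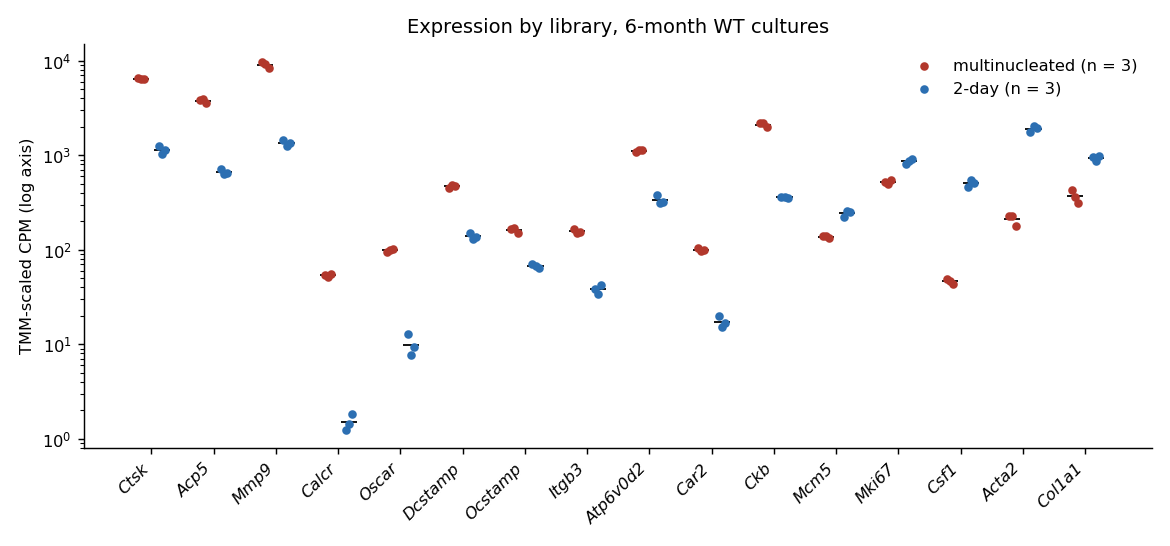
Expression of 16 genes in the 3 multinucleated and 3 2-day libraries of 6-month WT cultures, in TMM-scaled CPM on a log axis; points are libraries and short lines are group means. Multinucleated cultures lie above 2-day cultures for the 11 genes at the left and below them for Mcm5, Mki67, Csf1, Acta2 and Col1a1, with no overlap between libraries.

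Of the 15310 genes tested, 7783 were called (50.8%), 3586 higher in multinucleated cultures (23.4%) and 4197 lower (27.4%). The median change over all genes tested was -0.01. Most calls were small: 829 genes were over 2-fold higher (5.41%), 1206 were over 2-fold lower (7.88%), and 26 rose and 13 fell, each by more than 4 on the log2 scale. Libraries of the 2 groups did not overlap for 9212 genes (60.2%). These shares are the background for the counts of list members below. When a gene had also to exceed a 1.5-fold change in the test itself, 2178 genes were left, 860 higher and 1318 lower.

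The secreted enzymes of resorption held 3 of the most abundant genes that rose. Mmp9 (chr2:164940780-164955850), a gelatinase that osteoclasts release at the bone surface, stood at 9634, 9146 and 8363 CPM in multinucleated cultures, against 1449, 1246 and 1342 CPM in 2-day cultures (log2 fold change 2.75 ± 0.07, adjusted p = 1.23e-26). Ctsk (chr3:95499256-95509362), cathepsin K, the protease that cuts type I collagen in the acid under the cell, stood at 6549.7, 6471 and 6398 CPM in multinucleated cultures, against 1241, 1020.1 and 1133 CPM in 2-day cultures (log2 fold change 2.52 ± 0.08, adjusted p = 3.71e-23). Acp5 (chr9:22126727-22135711), tartrate-resistant acid phosphatase, the classical stain for osteoclasts, stood at 3874, 3919 and 3599.9 CPM in multinucleated cultures, against 721, 632 and 657 CPM in 2-day cultures (log2 fold change 2.50 ± 0.08, adjusted p = 1.03e-22). The groups did not overlap for any of the 3, and every 2-day library already held more than 600 CPM of each. Together these 3 transcripts made up 1.90% to 2.07% of all counts in multinucleated cultures and 0.308% to 0.368% in 2-day cultures. Per length, Ctsk stood at 4281 RPKM in multinucleated and 748 RPKM in 2-day cultures and was the 5th most abundant of all genes tested in multinucleated cultures and the 32nd in 2-day cultures, while Mmp9 was 10th in multinucleated and 85th in 2-day cultures and Acp5 13th in multinucleated and 103rd in 2-day cultures. Mmp14, a membrane-bound collagenase, rose less (294 CPM in multinucleated and 207 CPM in 2-day cultures, log2 fold change 0.51 ± 0.06, adjusted p = 5.14e-09). The members that fell were Mmp2, Timp1 and Adamts1, with changes of -1.93, -1.87 and -1.81, and, named after their values were seen, Timp3 and Mmp12 with -1.34 and -0.40. Mmp2, the TIMPs and Adamts1 are also made by stromal cells, whose summed markers were lower as given above. The part of stromal RNA in these falls was not tested. In all, 6 of the 11 members were higher and 5 lower.

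Late receptors and surface genes of the osteoclast had the highest median change of the 58 lists. Of 23 measured members of this list, 20 were higher, 16 of them over 2-fold, with a median of 1.73. Calcr (chr6:3685680-3764714), the receptor through which calcitonin halts resorption, stood at 54.5, 52.1 and 56.1 CPM in multinucleated cultures, against 1.24, 1.43 and 1.83 CPM in 2-day cultures (log2 fold change 5.16 ± 0.13, adjusted p = 2.01e-26). The 2-day libraries thus sat close to the detection limit for Calcr, and the 2 groups were far from overlapping. Oscar (chr7:3609813-3616157), an immunoglobulin-like receptor that signals through an ITAM adaptor, stood at 95.8, 99.8 and 101 CPM in multinucleated cultures, against 12.7, 7.78 and 9.29 CPM in 2-day cultures (log2 fold change 3.32 ± 0.11, adjusted p = 5.16e-23). Steap4, a metalloreductase, averaged 25.3 ± 0.101 CPM in multinucleated cultures and 1.16 ± 0.134 CPM in 2-day cultures (SD, n = 3 each, log2 fold change 4.43 ± 0.14, adjusted p = 3.34e-23). Akr1c18, an aldo-keto reductase, had 81.3, 84.7 and 93.9 CPM in multinucleated cultures, against 8.80, 7.83 and 9.94 CPM in 2-day cultures. Mst1r, a receptor tyrosine kinase, rose by 1.73 ± 0.08. The 3 members that fell, Ramp1, Pard6g and Lrrc8a, were named after their values were seen; Ramp1, an accessory chain that turns the calcitonin receptor into an amylin receptor, was at 0.371 CPM in multinucleated and 3.15 CPM in 2-day cultures (-3.06).

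Beyond that list, the 15 named genes with the largest increases, each of at least 5 CPM in multinucleated cultures, included several that are not usual osteoclast markers. Corin, a membrane protease known for processing natriuretic peptide in the heart, stood at 19.4, 18.1 and 16.1 CPM in multinucleated cultures, against 0.846, 0.629 and 0.558 CPM in 2-day cultures (log2 fold change 4.71 ± 0.18, adjusted p = 1.55e-21). Clic5, a chloride-channel-like protein tied to the actin cortex, averaged 12.8 CPM in multinucleated and 0.828 CPM in 2-day cultures, and Msln, mesothelin, 8.10 CPM in multinucleated and 0.550 CPM in 2-day cultures. Card14, a scaffold of NF-kB signalling, averaged 27.7 CPM in multinucleated and 2.27 CPM in 2-day cultures. Rasgrp1, a Ras exchange factor of lymphocytes, averaged 10.2 CPM in multinucleated and 1.01 CPM in 2-day cultures, and Tspan7, a tetraspanin, 62.7 CPM in multinucleated and 7.05 CPM in 2-day cultures. St8sia6, Serpind1, Ephx2 and Ttn completed the group with changes of 3.83, 3.58, 3.24 and 3.01.

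Genes of cell fusion and attachment were found among both the higher and the lower genes. Dcstamp (chr15:39745932-39760934), the membrane protein required for fusion of osteoclast precursors, stood at 455, 486 and 473 CPM in multinucleated cultures, against 151, 131 and 135 CPM in 2-day cultures (log2 fold change 1.76 ± 0.07, adjusted p = 1.48e-21). Its partner Ocstamp stood at 167, 169 and 149.8 CPM in multinucleated cultures, against 70.3, 66.9 and 64.4 CPM in 2-day cultures (log2 fold change 1.27 ± 0.08, adjusted p = 1.71e-15). Both were thus present at 2 days and higher in every multinucleated library. Of 27 measured fusion genes 11 rose and 8 fell, against 23.4% higher and 27.4% lower of all genes, so the falls were near the background. The falls included Adam12 (-3.32 ± 0.17) and the chemokine Ccl2 (-1.88 ± 0.12), while Cd44, Bsg and Ccl9 were not called. Cd44, a hyaluronan receptor, stood at 882 CPM in multinucleated and 857 CPM in 2-day cultures. Among 39 attachment and podosome genes 19 rose and 11 fell, the falls again near the background. Itgb3 (chr11:104608000-104670476), the β3 chain of the vitronectin receptor by which osteoclasts grip bone, had 165, 152 and 154 CPM in multinucleated cultures, against 38.6, 33.8 and 42.4 CPM in 2-day cultures (log2 fold change 2.03 ± 0.07, adjusted p = 3.44e-23), and its partner chain Itgav, abundant already at 2 days, rose by 0.53 ± 0.07. Src, the kinase needed for the ruffled border, rose by 1.17 ± 0.06, Rac2 by 1.41 ± 0.07 and Itga2 by 2.48 ± 0.18. The largest falls in the attachment list were Fscn1 (-2.92 ± 0.12), which bundles actin, and Tgfb1i1 (-2.43 ± 0.13).

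Receptors and adaptors of the RANK and ITAM pathways rose in 18 of 33 cases and fell in 1, with a median of 0.27. RANK itself, Tnfrsf11a, stood at 296, 283 and 294 CPM in multinucleated cultures, against 184, 183 and 193 CPM in 2-day cultures (log2 fold change 0.64 ± 0.06, adjusted p = 4.37e-11), and Csf1r, the M-CSF receptor, at 1301, 1297 and 1264 CPM in multinucleated cultures, against 806, 785 and 767 CPM in 2-day cultures (log2 fold change 0.71 ± 0.05, adjusted p = 2.53e-15). Tyrobp, the adaptor DAP12, rose by 0.79 ± 0.07, and Siglec15, a sialic-acid receptor that pairs with it, by 2.45 ± 0.13, whereas Trem2, another receptor that it carries, was not called (190.5 CPM in multinucleated and 201 CPM in 2-day cultures). Grb2, Tab2 and Lilrb4a were also not called. The one member that fell, Clec5a (named after its value was seen), changed by -0.25.

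Most transcription factors of the lineage changed by less than 2-fold, as did most genes tested. Nfatc1, the factor that RANKL induces and amplifies, averaged 316 ± 16.4 CPM in multinucleated cultures and 212 ± 8.81 CPM in 2-day cultures (SD, n = 3 each, log2 fold change 0.57 ± 0.07, adjusted p = 2.61e-08). Of 35 factors 15 rose and 10 fell, against 23.4% higher and 27.4% lower of all genes, so the falls were near the background. Over 2-fold, 3 fell and 2 rose, against 7.88% lower and 5.41% higher of all genes, both near the background. The 2 that rose over 2-fold were Ppargc1b (1.23 ± 0.10), a coactivator of mitochondrial genes, and Bhlhe40 (1.02 ± 0.06). Jdp2, Mitf and Fos rose by 0.55, 0.31 and 0.25, while the early factors Egr1, Fosl1 and Hes1 changed by -1.85, -1.96 and -2.41. Repressors of the fate mostly fell, 12 of 22 against 3 that rose. Irf8 and Bcl6, which oppose the osteoclast fate, changed by -0.32 and -0.41, each within 1.5-fold, and Klf4 and Nr4a1 changed by -1.03 and -1.52.

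The machinery of acid secretion mostly rose, in 8 of 11 cases with a median of 1.25, and so did the proton pump. Of the V-ATPase, the pump that acidifies the resorption pit, 8 of 9 measured V1 subunits and 8 of 10 V0 and accessory subunits were higher and none was lower, with medians of 1.06 and 0.88. The acid secretion and V0 lists share Atp6v0d2, so their counts are not independent. Per length, the most abundant subunits of multinucleated cultures were Atp6v1b2 (441 RPKM in multinucleated and 168 RPKM in 2-day cultures), Atp6v0d2 (411 RPKM in multinucleated and 124 RPKM in 2-day cultures), the osteoclast form of the d subunit, and Tcirg1 (385 RPKM in multinucleated and 162 RPKM in 2-day cultures), the osteoclast form of the a subunit. Atp6v0d2 stood at 1079.9, 1129 and 1135 CPM in multinucleated cultures, against 378, 311 and 324 CPM in 2-day cultures (log2 fold change 1.72 ± 0.06, adjusted p = 5.87e-22). Its widely expressed counterpart Atp6v0d1 rose by 0.53 ± 0.07, and the other a subunits, Atp6v0a1 and, named after its value was seen, Atp6v0a2, were not called. Atp6v0a1 stood at 105 CPM in multinucleated and 100.3 CPM in 2-day cultures. Car2, carbonic anhydrase II, which supplies the protons, had 104, 97.8 and 99.8 CPM in multinucleated cultures, against 20.1, 15.4 and 16.7 CPM in 2-day cultures (log2 fold change 2.53 ± 0.08, adjusted p = 6.81e-23). Clcn7, the chloride-proton antiporter of the ruffled border, rose by 1.54 ± 0.05 and its β subunit Ostm1 by 0.65 ± 0.06. Slc4a2, the bicarbonate exchanger, rose by 1.32 ± 0.05. The 2 acid-secretion members that fell were the phosphate transporters Slc20a1 and Slc20a2, named after their values were seen (-0.55 and -0.36).

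**Figure D2:**
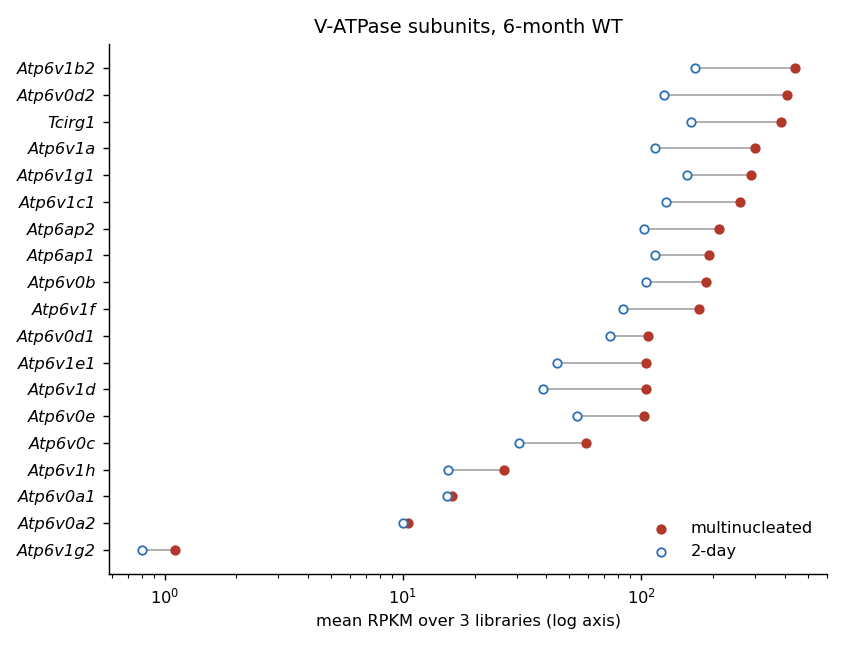
Mean RPKM of the 19 measured V-ATPase subunits and accessory proteins over 3 multinucleated (filled) and 3 2-day (open) 6-month WT libraries, on a log axis, ordered by the multinucleated level. All but Atp6v0a1, Atp6v0a2 and Atp6v1g2 were called higher in multinucleated cultures.

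Lysosomal genes followed with smaller changes: 35 of 44 rose and 4 fell, with a median of 0.45, and 4 exceeded 2-fold. Naglu, Smpd1 and Hexa, enzymes that break down glycolipids and glycosaminoglycans, rose by 1.12, 1.10 and 1.07, and Cd68, a membrane protein of macrophage lysosomes, by 0.94. Ctsl, cathepsin L, ran the other way and was lower in multinucleated cultures (1014 ± 30.8 CPM in multinucleated cultures and 1975 ± 136 CPM in 2-day cultures, SD, n = 3 each, log2 fold change -0.96 ± 0.07, adjusted p = 1.19e-13). Ctsc, Scarb2 and Lamp1, named after their values were seen, changed by -0.36, -0.24 and -0.21. Summed over the 44 genes, the list held 26652 to 27269 CPM in multinucleated cultures and 20084 to 20832 CPM in 2-day cultures. Genes of the ruffled border and vesicle traffic rose in 14 of 25 cases and fell in 3; Rab38, a GTPase of lysosome-related organelles, rose by 2.68 ± 0.10 and Plekhm1, an adaptor whose loss gives osteopetrosis, by 0.62 ± 0.06.

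Promoters of the acid and lysosome genes are shown because factors of the MiT family, to which Mitf and Tfeb belong, are known to bind the palindrome CACGTG in genes of this kind. With both strands searched, it occurred in the promoters of 4 of 13 V-ATPase genes (30.8%) and 10 of 35 lysosome genes (28.6%) that had a sequence, against 9.91% of the 10871 promoters of all genes tested. Among the 509 promoters of genes over 2-fold higher its share was 8.06%, below that of all genes. Other motifs were also more frequent in these lists: the NFAT core TGGAAA occurred in 4 of 13 V-ATPase promoters (30.8%) and 9 of 35 lysosome promoters (25.7%), against 16.8% of all, and GAGGAA, an ETS core, in 16 of 35 lysosome promoters (45.7%), against 27.1% of all. A promoter was 250 bases before to 50 after a start in RefSeq on GRCm38.p6, and a gene with several starts counts by the first listed. The promoters of Clcn7 (chr17:25133141-25133440, plus strand), with 2 copies that begin 15 bases before and at base 8 after the start, and Atp6v1a (chr16:44139210-44139509, minus strand), with 1 copy that begins 131 bases before it, are printed 5′ to 3′ on the gene's strand with the palindrome in capitals.
Clcn7: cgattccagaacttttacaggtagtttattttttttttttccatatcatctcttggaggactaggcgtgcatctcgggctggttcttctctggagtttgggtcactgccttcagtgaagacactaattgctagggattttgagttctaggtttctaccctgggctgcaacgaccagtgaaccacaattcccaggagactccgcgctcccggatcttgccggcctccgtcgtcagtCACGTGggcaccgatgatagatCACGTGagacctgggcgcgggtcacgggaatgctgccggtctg
Atp6v1a: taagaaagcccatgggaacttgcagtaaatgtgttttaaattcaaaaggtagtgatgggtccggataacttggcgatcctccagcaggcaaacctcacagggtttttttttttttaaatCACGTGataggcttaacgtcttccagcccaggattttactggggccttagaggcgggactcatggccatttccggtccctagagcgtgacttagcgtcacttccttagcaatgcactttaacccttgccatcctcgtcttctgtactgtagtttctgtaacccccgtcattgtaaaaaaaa

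Mitochondrial genes rose across all complexes of the respiratory chain. Resorption is energy-hungry, and osteoclasts are known for dense mitochondria. Complex I had 31 of 46 genes higher and 1 lower, complex II 4 of 4, complex III 9 of 9, complex IV 12 of 14 and complex V 13 of 16, the last 4 with none lower, and the 5 medians lay between 0.39 and 0.68. Sdha, the flavoprotein of complex II, had 752 CPM in multinucleated and 403 CPM in 2-day cultures (0.90 ± 0.04), Uqcrc2 of complex III 304 CPM in multinucleated and 169 CPM in 2-day cultures (0.85 ± 0.05) and Atp5b, the catalytic subunit of ATP synthase, 1605 CPM in multinucleated and 1153 CPM in 2-day cultures (0.48 ± 0.05). Almost all of these changes were under 2-fold. Of 13 mRNAs encoded in the mitochondrial genome 12 were higher, with a median of 0.78; mt-Nd5, mt-Nd4 and mt-Nd6 changed by 0.83, 0.78 and 0.78. mt-Co2, mt-Atp6 and mt-Co3 were counted at under 20 CPM, and since no setting for reads with several matches is recorded, genes such as these with copies in the nuclear genome are uncertain.

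Among 34 genes of the citrate cycle and of mitochondrial biogenesis 25 rose and 2 fell. The creatine kinases, which store energy as phosphocreatine, led: Ckb (chr12:111669355-111672338), the cytosolic brain form, had 2171, 2183 and 1973 CPM in multinucleated cultures, against 358, 365 and 352 CPM in 2-day cultures (log2 fold change 2.56 ± 0.10, adjusted p = 1.3e-21), and Ckmt1, the mitochondrial form, had 15.5 CPM in multinucleated and 1.24 CPM in 2-day cultures (3.64 ± 0.16). Per length Ckb was 18th of all genes in multinucleated cultures and 156th in 2-day cultures. Mdh1 and Pdhb rose by 1.32 and 1.04. The core element of ERR nuclear receptors, AAGGTCA, occurred in 9 of 72 promoters of nuclear respiratory-chain genes (12.5%) against 3.23% of all.

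Glycolysis did not follow. Of 26 genes 9 rose, 7 fell and 10 were not called. The median of 0.02 took the other sign with library totals as the only scaling (-0.04), without multinucleated replicate 2 (-0.02), with DESeq2 (-0.0040) and with the DESeq2 size factors in edgeR (-0.0036). Gapdh, Pkm and Ldha, abundant glycolytic enzymes, were not called, and Gapdh stood at 2971 CPM in multinucleated and 2877 CPM in 2-day cultures. Ldhb, the lactate dehydrogenase chain that favours lactate use, rose by 2.47 ± 0.10, and the monocarboxylate transporters Slc16a1 and Slc16a3 changed by -0.61 and -0.64. Among 28 genes of serine, one-carbon and amino acid metabolism 18 fell and 6 rose; Phgdh, the first enzyme of serine synthesis, had 5.19, 7.44 and 5.56 CPM in multinucleated cultures, against 27.6, 31.4 and 32.6 CPM in 2-day cultures (log2 fold change -2.33 ± 0.12, adjusted p = 1.96e-17), and Psat1, Slc7a5 and Odc1 changed by -1.05, -1.12 and -0.99.

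**Figure D3:**
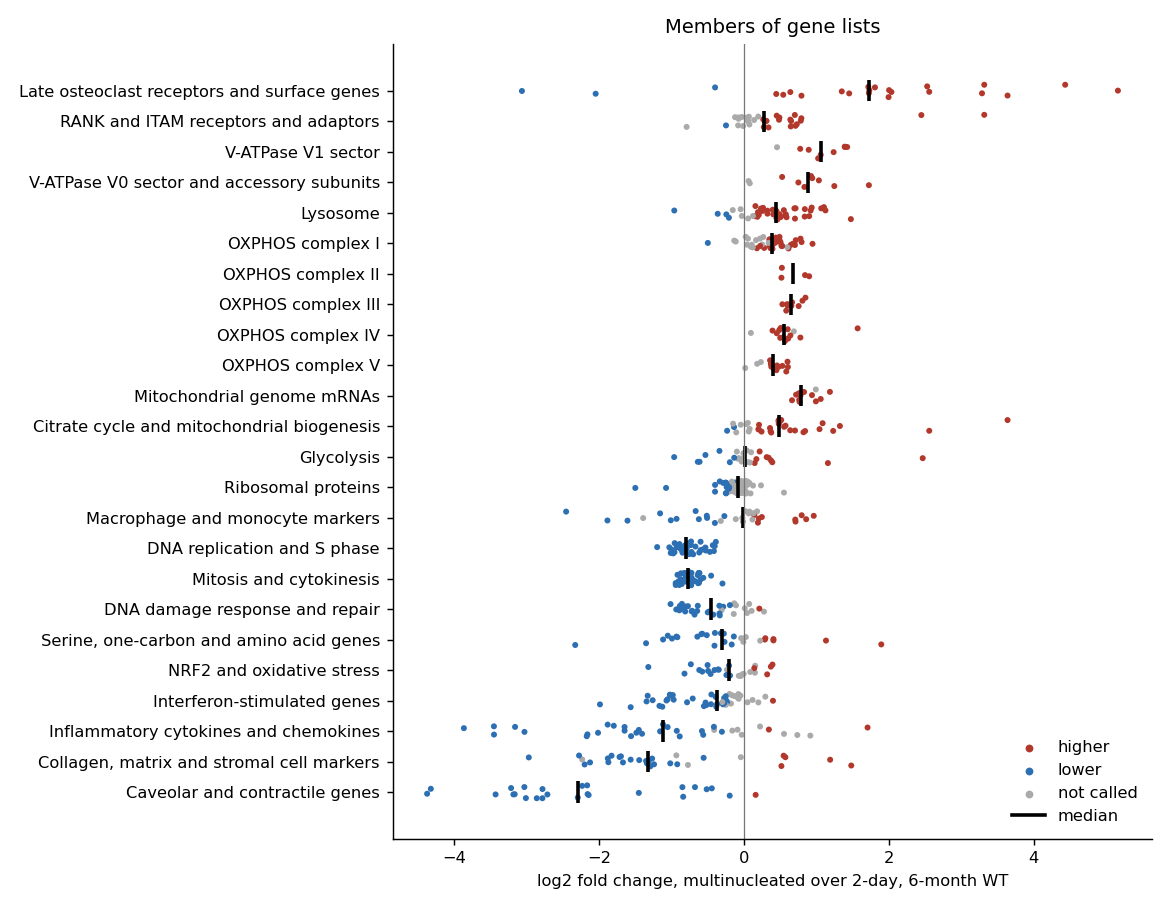
Log2 fold change of multinucleated over 2-day 6-month WT cultures for the measured members of 24 gene lists; each point is a gene, red where called higher, blue where called lower and grey where not called, and the black bar is the list's median. Medians run from 1.73 for late osteoclast genes to -2.29 for caveolar and contractile genes, and the cell cycle lists lie wholly below 0.

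Genes of the cell cycle fell together. All 42 genes of DNA replication and S phase and all 45 of mitosis and cytokinesis were lower, against 27.4% of all genes, with medians of -0.80 and -0.77. Only 4 of the 87 fell by more than 2-fold. Mki67, the proliferation antigen, had 521, 493 and 542 CPM in multinucleated cultures, against 812, 878 and 913 CPM in 2-day cultures (log2 fold change -0.74 ± 0.09, adjusted p = 1.29e-08). Mcm5, a subunit of the replicative helicase, had 142, 139.9 and 132 CPM in multinucleated cultures, against 222, 257 and 248 CPM in 2-day cultures (log2 fold change -0.82 ± 0.06, adjusted p = 1.97e-14), and Rrm2, the ribonucleotide reductase subunit that limits nucleotide supply, 90.2, 83.4 and 90.8 CPM in multinucleated cultures, against 208, 204 and 194 CPM in 2-day cultures (log2 fold change -1.20 ± 0.06, adjusted p = 1.3e-18). Plk1, Ube2c and Nek2, which drive entry into and exit from mitosis, changed by -0.94, -0.94 and -0.92, and Ccnb1, cyclin B1, by -0.77. Transcripts of dividing cells were thus still well represented in multinucleated cultures, in which the mitosis list summed to 3296 to 3502 CPM, against 5585 to 5796 CPM in 2-day cultures. Pttg1, named after its value was seen, was the weakest of the calls (log2 fold change -0.30 ± 0.13, adjusted p = 0.0498). The mitosis count was 44 with a stricter filter on low counts or without any of several single libraries, and against a 1.5-fold minimum change the counts were 31 for mitosis and 28 for S phase. DNA repair genes fell in 23 of 34 cases, with Chek1, a checkpoint kinase, at -0.93.

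Promoters of these genes are shown because they move together and carry elements known from cell-cycle control. The CHR element TTTGAA occurred in 26 of 38 mitosis promoters (68.4%) against 12.2% of all, and the CCAAT box in 27 of 38 (71.1%) against 38.5%. The E2F element TTGGCGC occurred in 8 of 35 S-phase promoters (22.9%) against 4.25% of all, and the CCAAT box in 21 of 35 (60%) against 38.5%. Both strands were searched, and E2F elements and CCAAT boxes shared bases in 81 of the 10871 promoters. In Plk1 (chr7:122159185-122159484, plus strand) capitals mark a CCAAT box that begins 14 bases before the start and a CHR element at base 31 after it. In Mcm5 (chr8:75109259-75109558, plus strand) they mark E2F elements that begin 164 and 149 bases before the start, on the other strand.
Plk1: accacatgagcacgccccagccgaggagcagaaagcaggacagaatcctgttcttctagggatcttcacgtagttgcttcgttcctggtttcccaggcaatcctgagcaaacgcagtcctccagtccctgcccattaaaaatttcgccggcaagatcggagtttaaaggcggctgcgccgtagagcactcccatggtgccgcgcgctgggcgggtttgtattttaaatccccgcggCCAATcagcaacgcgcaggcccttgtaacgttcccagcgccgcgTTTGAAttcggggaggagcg
Mcm5: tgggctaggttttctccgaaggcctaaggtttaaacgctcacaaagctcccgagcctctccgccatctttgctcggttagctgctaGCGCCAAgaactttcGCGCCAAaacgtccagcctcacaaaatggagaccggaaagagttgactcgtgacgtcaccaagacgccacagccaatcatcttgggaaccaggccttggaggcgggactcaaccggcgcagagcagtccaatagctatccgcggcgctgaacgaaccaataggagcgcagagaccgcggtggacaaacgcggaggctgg

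Inflammatory and stress genes were mostly lower. Of 35 cytokines and chemokines 25 fell and 2 rose, with a median of -1.12. Csf1 (chr3:107741048-107760469), which encodes M-CSF and is made by stromal cells and macrophages, had 49.0, 46.9 and 43.2 CPM in multinucleated cultures, against 460.4, 550.2 and 505 CPM in 2-day cultures (log2 fold change -3.45 ± 0.08, adjusted p = 3.12e-27). Ptgs2, the inducible cyclooxygenase, had 6.83, 6.29 and 8.37 CPM in multinucleated cultures, against 64.5, 62.3 and 65.9 CPM in 2-day cultures (log2 fold change -3.16 ± 0.12, adjusted p = 9e-22), and the monocyte chemokines Ccl2, Ccl7 and Ccl12 changed by -1.88, -2.17 and -2.01. Interferon-stimulated genes fell in 31 of 47 cases and rose in 1, with a median of -0.37; Ifi44, Cxcl10 and Gbp2 changed by -1.99, -1.56 and -1.34. NRF2 targets fell in 14 of 27 cases, among them Nqo1 (-1.32 ± 0.11), and heat-shock and immediate early genes in 17 of 30. In contrast 14 of 21 feedback genes of NF-kB rose and 4 fell, Tnfaip3, the deubiquitinase A20, by 0.78 ± 0.06. The stromal list fell beside those of these groups that were lower, as given above.

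Macrophage markers split. Of 32 measured, 9 rose, 12 fell and 11 were not called, with a median of -0.02. Csf1r and Marco rose by 0.71 and 0.96, Axl, Cd36 and Cd14 changed by -2.45, -1.16 and -0.93, and Siglec1 and Mrc1 were not called. Mrc1, the mannose receptor, stood at 118 CPM in multinucleated and 128 CPM in 2-day cultures. Adgre1, the antigen F4/80, averaged 554 ± 21.2 CPM in multinucleated cultures and 502 ± 27.9 CPM in 2-day cultures (SD, n = 3 each, log2 fold change 0.14 ± 0.05, adjusted p = 0.0177). Its call was lost with library totals as the only scaling (log2 fold change 0.09, adjusted p = 0.171), without multinucleated replicate 2 (0.11, adjusted p = 0.11) and without 2-day replicate 2 (0.11, adjusted p = 0.0909).

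Among lists with at least 10 measured members, contractile and matrix genes had the lowest medians. Of 25 caveolar and contractile genes 24 were lower, 18 of them over 2-fold, with a median of -2.29. Acta2 (chr19:34241090-34255336), smooth-muscle actin, had 227, 226 and 179 CPM in multinucleated cultures, against 1745, 2035 and 1951 CPM in 2-day cultures (log2 fold change -3.18 ± 0.09, adjusted p = 2.71e-24). Cavin2, a coat protein of caveolae, had 1.05, 1.05 and 1.11 CPM in multinucleated cultures, against 20.2, 23.8 and 22.9 CPM in 2-day cultures, and Ankrd1, a nuclear cofactor induced by mechanical load, 0.817, 1.41 and 1.26 CPM in multinucleated cultures, against 21.2, 26.1 and 23.6 CPM in 2-day cultures (log2 fold change -4.32 ± 0.20, adjusted p = 6.69e-19). Actg2, Lmod1 and Myh11, further smooth-muscle genes, changed by -3.21, -3.16 and -3.43. In contrast Cav1, caveolin-1, changed by -0.20 ± 0.06 only, at 135 CPM in multinucleated and 154 CPM in 2-day cultures. Of 30 stromal and matrix genes 21 fell and 5 rose, with a median of -1.33. Col1a1 had 427, 363 and 309.8 CPM in multinucleated cultures, against 948, 881 and 975 CPM in 2-day cultures (log2 fold change -1.35 ± 0.09, adjusted p = 3.84e-15) and Col3a1 231, 180.1 and 153 CPM in multinucleated cultures, against 426, 284 and 355 CPM in 2-day cultures (log2 fold change -0.92 ± 0.10, adjusted p = 3.04e-09). Cxcl12, a stromal chemokine, changed by -2.97 ± 0.20 and Serpinh1, a collagen chaperone, by -2.27 ± 0.09. Dcn, Col6a1, Col6a2, Mgp and Ibsp, named after their values were seen, were higher instead, Dcn at 34.8 CPM in multinucleated and 12.5 CPM in 2-day cultures (1.48 ± 0.11), so part of the list moved the other way.

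Other genes with the largest falls were Edn1, endothelin-1 (1.27 CPM in multinucleated and 21.0 CPM in 2-day cultures), Siglecg, a B-cell lectin (1.22 CPM in multinucleated and 20.0 CPM in 2-day cultures), Krt19, a keratin (0.609 CPM in multinucleated and 8.85 CPM in 2-day cultures), Slc1a6, Klhdc8a, Aif1l, Col11a1, Hs6st2, Rflnb, Ccn4, Itga3, Ptprz1 and Parm1, with changes from -4.05 to -3.46. None of them exceeded 10 CPM in a multinucleated library.

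The TEAD element CATTCC is known from genes that respond to load and cell spreading. Other motifs were also more frequent among the 19 promoters of caveolar and contractile genes. The CCAAT box occurred in 11 (57.9%), against 38.5% of all, and the TATA box TATAAA in 3 (15.8%), against 7.30%. GAGGAA was less frequent, in 4 (21.1%), against 27.1%. The TEAD element occurred in 8 of the 19 (42.1%), against 11.8% of all, and in 17.1% of 842 promoters of genes that fell over 2-fold. The promoters of Ankrd1 (chr19:36119795-36120094, minus strand) and Amotl2 (chr9:102717554-102717853, plus strand), which encodes an angiomotin that binds the TEAD cofactor YAP, are printed with the element in capitals on either strand; it begins 210 and 123 bases before the start in Ankrd1 and 65 before it in Amotl2. Amotl2 itself averaged 8.84 ± 1.98 CPM in multinucleated cultures and 81.9 ± 5.90 CPM in 2-day cultures (SD, n = 3 each, log2 fold change -3.22 ± 0.12, adjusted p = 2.55e-21).
Ankrd1: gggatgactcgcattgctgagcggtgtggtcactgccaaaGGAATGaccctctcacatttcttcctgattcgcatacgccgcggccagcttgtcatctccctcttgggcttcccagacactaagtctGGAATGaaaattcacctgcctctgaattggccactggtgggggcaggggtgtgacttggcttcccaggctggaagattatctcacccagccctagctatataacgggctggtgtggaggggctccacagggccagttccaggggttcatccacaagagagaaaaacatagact
Amotl2: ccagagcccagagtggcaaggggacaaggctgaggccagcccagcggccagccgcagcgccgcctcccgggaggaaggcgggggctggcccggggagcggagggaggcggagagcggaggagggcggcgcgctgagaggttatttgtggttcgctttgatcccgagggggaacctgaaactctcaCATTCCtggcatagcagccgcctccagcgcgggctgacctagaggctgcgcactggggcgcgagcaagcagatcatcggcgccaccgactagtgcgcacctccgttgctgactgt

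For other motifs of the 11 searched, shares were also set side by side in genes over 2-fold higher and in all genes. The AP-1 element TGANTCA occurred in 7.86% of 509 such promoters against 5.40% of all, the NFAT core TGGAAA in 16.7% against 16.8%, GAGGAA in 28.7% against 27.1% and the TATA box TATAAA in 9.04% against 7.30%. The CArG box occurred in 2 of 19 caveolar and contractile promoters (10.5%) against 1.34% of all. These shares describe letters in a window and say nothing of binding. TEAD elements shared bases with GAGGAA in 121 promoters, CCAAT boxes with CHR elements in 15 and the CACGTG palindrome with AP-1 elements in 12.

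**Figure D4:**
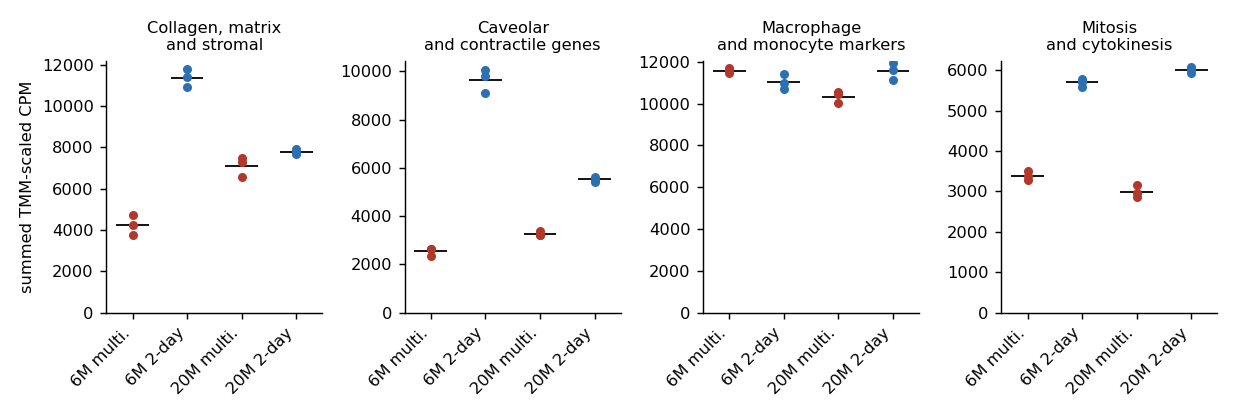
Summed TMM-scaled CPM of the measured members of 4 gene lists in multinucleated (red) and 2-day (blue) WT cultures at 6 and 20 months; points are the 3 libraries of a group and lines are means. Stromal and contractile sums were highest in 6-month 2-day cultures, whereas the mitosis sums were lower in multinucleated cultures at both ages and the macrophage sums lay between 10034 and 11950 CPM throughout.

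The same pair of stages at 20 months was set beside the 6-month pair. No library is shared between the 2 stage comparisons. At 20 months 8011 genes were called (52.3%), 3895 higher (25.4%) and 4116 lower (26.9%), with 927 over 2-fold higher (6.05%) and 655 over 2-fold lower (4.28%). In all 2779 genes were higher and 3027 lower at both ages, and 87 were called in opposite directions. Across the 15310 genes, which are not independent, the 2 sets of changes had a Pearson r of 0.727. The difference between the stage effects, tested in the same fit, was called for 1893 genes (12.4%), with 744 higher at 6 months (4.86%) and 1149 lower (7.5%). Of these, 28 differed over 2-fold upwards (0.183%) and 594 over 2-fold downwards (3.88%). Mice of 6 and 20 months may also have been cultured at different times, which the labels do not give, so age and a culture date cannot be told apart.

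Of 37 core genes, the difference between the ages was called for 15. Ctsk changed by 2.52 at 6 months and 2.27 at 20 months, Acp5 by 2.50 and 2.46, Mmp9 by 2.75 and 2.69 and Oscar by 3.32 and 3.06, and none of these 4 differences was called (0.25 ± 0.11, 0.04 ± 0.11, 0.06 ± 0.09 and 0.26 ± 0.15). Calcr differed by 1.33 ± 0.20, adjusted p = 1.09e-05: its multinucleated levels were alike, 54.2 CPM at 6 months and 53.6 CPM at 20 months, and its 2-day level at 20 months, 3.77 CPM, lay above every 6-month 2-day library. Car2 differed by 0.81 ± 0.12, adjusted p = 3.51e-06 and Dcstamp by 0.44 ± 0.09, adjusted p = 0.0009, both larger at 6 months, as were Itgb3 (0.33 ± 0.09), Itgav (0.46 ± 0.10), Atp6v0d2 (0.31 ± 0.09) and Mitf (0.37 ± 0.10). Mmp14, Src and Sphk1, which makes the coupling lipid sphingosine-1-phosphate, rose less at 6 months, by differences of -0.54 ± 0.08, -0.29 ± 0.08 and -0.91 ± 0.23. V-ATPase medians were 1.06 at 6 months and 1.10 at 20 months for V1, and 0.88 at 6 months and 0.82 at 20 months for V0. The difference was called for 4 of 9 V1 and 2 of 10 V0 and accessory genes. All had the higher change at 6 months, against 4.86% of all genes called in that direction. In the late osteoclast list, with medians of 1.73 at 6 months and 1.42 at 20 months, 10 of 23 genes had the higher change at 6 months and 3 the lower. Lysosome medians were 0.45 at 6 months and 0.32 at 20 months, and 28 of 44 lysosome genes were higher at 20 months. The stromal list of multinucleated cultures summed to 0.371 of the 2-day level at 6 months and 0.914 at 20 months. For the caveolar and contractile list these values were 0.263 and 0.593. The part of either list in the acid and lysosome results was not tested.

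The cell cycle fell at both ages, and slightly less at 6 months. The medians were -0.80 at 6 months and -0.91 at 20 months for S phase and -0.77 and -1.004 for mitosis; the difference was called for 8 of 42 and 17 of 45 genes, all of them with the smaller fall at 6 months, against 4.86% of all genes called in that direction. Ccnb1 differed by 0.22 ± 0.07, adjusted p = 0.0448.

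Contractile and stromal genes differed widely between the ages. Of 25 caveolar and contractile genes 20 had the lower stage difference at 6 months, as did 22 of 30 stromal genes, against 7.5% of all genes. Of these 22, Col6a1, Col6a2 and Mgp, named after their values were seen, were higher in multinucleated cultures at both ages. Acta2 had 317, 316 and 330.2 CPM in 20-month multinucleated cultures, against 778, 839 and 817 CPM in 20-month 2-day cultures, a change of -1.34 beside -3.18 at 6 months (difference -1.85 ± 0.12, adjusted p = 3.14e-13). For Acta2 the gap lay mainly in the 2-day cultures, which averaged 1910 CPM at 6 months and 811 CPM at 20 months. It lay less in the multinucleated ones, at 211 and 321 CPM. Col1a1 fell at 6 months only, with a difference of -1.27 ± 0.12, adjusted p = 1.02e-09. Its gap lay mainly in the multinucleated cultures, at 367 CPM at 6 months and 925 CPM at 20 months. The 2-day cultures held 935 and 978 CPM of it. Col3a1 fell at 6 months and rose at 20 months (-0.92 and 0.37, difference -1.29 ± 0.15, adjusted p = 3.73e-08). Its levels differed at both stages, with 188 and 256 CPM in multinucleated and 355 and 198 CPM in 2-day cultures. Cav1 likewise fell slightly at 6 months and rose at 20 months (difference -0.76 ± 0.08, adjusted p = 5.75e-09). Its gap lay mainly in the multinucleated cultures, at 135 CPM at 6 months and 239 CPM at 20 months, with 154 and 162 CPM in 2-day cultures. The 10 named genes with the largest differences all had the lower change at 6 months: Krt19 (-3.03 ± 0.35), Fndc1 (-2.53 ± 0.48), Edn1 (-2.47 ± 0.28), Siglecg (-2.41 ± 0.22), Ankrd1 (-2.37 ± 0.30), Mgll (-2.36 ± 0.35), Amotl2 (-2.34 ± 0.17), Aif1l (-2.34 ± 0.32), Synpo2 (-2.31 ± 0.19) and Klhdc8a (-2.22 ± 0.36).

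**Figure D5:**
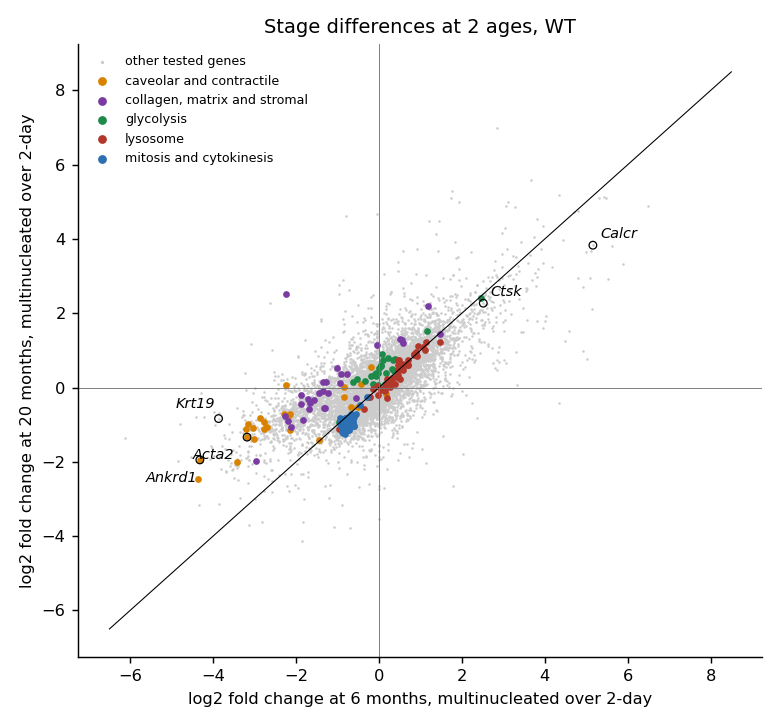
Log2 fold change of multinucleated over 2-day WT cultures at 6 months (x axis) and 20 months (y axis) for all 15310 genes tested, with members of 5 lists in colour, 5 named genes circled and the line of equal change. Lysosome genes lie near the line and most mitosis genes slightly below it, with smaller falls at 6 months. Most contractile and stromal genes lie above it on the left, with larger falls at 6 months.

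Glycolysis and hypoxia genes also parted by age. The glycolysis median was 0.02 at 6 months and 0.39 at 20 months, and 14 of 26 genes had the lower change at 6 months. Gapdh changed by 0.05 at 6 months and 0.57 at 20 months (difference -0.52 ± 0.10, adjusted p = 0.000369), and Pkm by -0.08 and 0.31. Of 22 hypoxia genes 11 had the lower change at 6 months, with medians of -0.09 and 0.55; Adm, adrenomedullin, changed by -2.27 and -0.16 and P4ha2, a collagen prolyl hydroxylase, by -0.95 and 0.36. Respiratory-chain medians were 0.39 at 6 months and 0.40 at 20 months for complex I and 0.56 and 0.66 for complex IV. Of the 89 nuclear genes of the chain, the difference was called for 2, both in complex I.

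The multinucleated groups of the series differ in age, genotype and label. Among them, the 6-month WT cultures were not the highest in Ctsk, Acp5, Mmp9 or Calcr. They ranked 1st of all 10 groups for Ocstamp (162 CPM), Tnfrsf11a (291 CPM), Jdp2 (526 CPM), Mitf (150 CPM) and Ppargc1b (54.5 CPM). Ctsk averaged 6473 CPM in them, 11507 CPM in the 1-month WT group whose label carries D1, 6924 CPM in 20-month WT and 559 CPM in the other 1-month WT group, which lies below the 1131 CPM of 6-month 2-day cultures. Over the 10 groups, the 2-day ones included, 6-month WT multinucleated cultures ranked 3rd for Calcr at 54.2 CPM and 4th for Acp5 and Mmp9. The 6-month KO group whose label carries 519 was above them in these 3 genes, with 85.7 CPM of Calcr, 5885 CPM of Acp5 and 13083 CPM of Mmp9.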

How the data were processed

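The deposited files hold raw counts of fragments per gene, 1 file per library; per the file headers the authors counted exons of the Ensembl release 88 annotation of GRCm38 with featureCounts 1.6.0 from sorted STAR alignments. The submitters' processing notes name HTSeq and mm10 instead; the headers, which hold the command, were followed. No strand or multimapping option is recorded, so overlapping antisense genes and near-identical copies are uncertain. Of 50686 genes in the files, 99.4% had a symbol. Total counts were 16433001 to 19969599 per compared library.

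All 30 libraries were fitted together with edgeR 4.0.16 (R 4.3.3): filterByExpr, TMM scaling, 1 term per group and a quasi-likelihood test, with Benjamini-Hochberg adjustment over 15310 genes and a threshold of 0.05. All groups shared 1 estimate of the spread (biological coefficient of variation 0.0610). The test of the 6-month minus the 20-month stage difference used the same fit. A fold is the fitted value; the standard error is its size over the square root of the F statistic. Counts were also simulated with 1 mean per gene over all 30 libraries, and 200 genes, picked among those with more counts, were changed. There the main contrast called 92% of 2-fold changes, 84% of 1.5-fold changes and 0.0753% of unchanged genes among 14804 genes. In the data 50.8% of genes were called, a far larger share than was changed in the simulation. These rates therefore need not hold for the contrast reported.

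Alternatives were DESeq2 1.42.0, its size factors in edgeR, library totals, no filter or a stricter one (1 CPM in 3 libraries), fits of 12 or 6 libraries, a 1.5-fold minimum change, a replicate block and leaving out each library. Genes named were 37 core genes; the 15 with the largest change in each direction with at least 5 CPM in the higher group and no overlap, predicted genes left out; up to 6 members per list of at least 5 CPM with the largest change and up to 3 of at least 100 CPM that were not called; and 10 with the largest age difference. Members and the 58 lists were chosen with earlier results of these data known. A few genes are not reported here.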

Additional observations from a re-analysis of the deposited data

Results flagged for a closer look

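The stage difference was tested for a difference between 6 and 20 months, and the core genes and the 10 other named genes that passed are given here as 6 months minus 20 months on the log2 scale, each with an adjusted p under 0.05 from edgeR. Differences above 0, with the larger rise or smaller fall at 6 months, were found for Calcr (1.33), Car2 (0.81), Itgav (0.46), Dcstamp (0.44), Mitf (0.37), Itgb3 (0.33), Atp6v0d2 (0.31) and Ccnb1 (0.22). Differences below 0 were found for the core genes Src (-0.29), Mmp14 (-0.54), Cav1 (-0.76), Sphk1 (-0.91), Col1a1 (-1.27), Col3a1 (-1.29) and Acta2 (-1.85). The 10 named genes with the widest gap were Klhdc8a (-2.22), Synpo2 (-2.31), Amotl2 (-2.34), Aif1l (-2.34), Mgll (-2.36), Ankrd1 (-2.37), Siglecg (-2.41), Edn1 (-2.47), Fndc1 (-2.53) and Krt19 (-3.03). Of 37 core genes 15 passed. Groups of 3 libraries were not examined for single outlying values.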

How the results depend on the processing

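The count of called genes was within 1.5 times of 7783 under every alternative but one: with a 1.5-fold minimum change it was 2178. It was 7696 with DESeq2, 7911 with library totals, 8163 with only the 6 libraries in the fit and 7089 to 7204 with any 1 library left out. The share of calls that were higher moved from 46.1% to 39.1% with library totals, which shifted the median of all genes to -0.07. Replicate numbers 2 and 4 are shared by the 2 groups, and the deviations of the libraries with the same number correlated at 0.0064 and 0.0068, so the numbers are not shown to pair them; with the number as a replicate block 6626 genes were called. No gene called both in the fit reported and under an alternative had opposite directions. The 1893 genes with a stage difference that depended on age became 2868 when only the 12 WT libraries were fitted, with 1476 higher and 1392 lower, and 1296 to 1903 with any 1 library left out; the cause was not tested. The 1296 came without 6-month multinucleated replicate 4. Of the 386 named genes, 90 lost their call against the 1.5-fold minimum, 2 with library totals, 2 with the replicate block and at most 4 with a single library left out (2-day replicate 1). Depth limits genes under about 1 CPM, where a library holds fewer than 20 counts.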

Other observations

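Histone genes, whose replication-dependent members end without a poly(A) tail and so enter a library selected for poly(A) only in part, rose where the cell cycle fell. Of 68 listed only 23 passed the filter, and 17 of these were higher and 1 lower, with a median of 1.49. Most stood at a few CPM or less. Hist2h2be averaged 55.0 ± 2.53 CPM in multinucleated cultures and 11.6 ± 0.586 CPM in 2-day cultures (SD, n = 3 each, log2 fold change 2.24 ± 0.09, adjusted p = 2.74e-20), and Hist1h1c, a linker histone, 94.3 CPM in multinucleated and 49.5 CPM in 2-day cultures (0.93 ± 0.08). Ribosomal protein genes, in contrast, were mostly level: 73 of 88 were not called and 15 were lower.

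Regulators of apoptosis rose in 14 of 25 cases and fell in 6, on both sides of the balance. The BH3-only genes Pmaip1, Bmf and Bcl2l11 rose by 1.45 ± 0.08, 1.27 ± 0.11 and 0.69 ± 0.07, and Mcl1, which opposes them, by 0.69 ± 0.05. Bcl2, on the same side as Mcl1, fell instead (-0.61 ± 0.13). Of 24 iron genes 8 rose and 10 fell, with a median of -0.20. The transferrin receptor Tfrc (1212 CPM in multinucleated and 671 CPM in 2-day cultures, 0.85 ± 0.06), the ferritin receptor Ncoa4 (1.03 ± 0.06) and the exporter Slc40a1 (1.05 ± 0.08) rose, and Hmox1, heme oxygenase 1, fell (-0.73 ± 0.07). The largest changes were those of the metalloreductases Steap4 (4.43) and Steap2 (-2.61). Lcn2, Steap1, Tfr2 and Heph, of under 5 CPM and named after their values were seen, changed by -1.92, -1.71, -1.70 and -1.44. Of 20 genes of antigen presentation 10 rose and 1 fell; Cd74, the invariant chain, rose by 1.34 ± 0.12 at 26.7 CPM in multinucleated and 10.5 CPM in 2-day cultures, while B2m and H2-K1 were not called. Among 31 genes of migration and chemoattractant receptors 10 rose and 13 fell, against 23.4% higher and 27.4% lower of all genes. Their median was -0.10, and Cxcr4 and Ccr1 rose by 1.71 ± 0.13 and 1.21 ± 0.06. The lipid scavenger Cd36 fell (-1.16 ± 0.05), and the cholesterol exporters Abca1 and Abcg1 rose by 0.84 ± 0.11 and 0.74 ± 0.09.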
